A study of Oryza sativa with 6 samples.

Results

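The DREB1 genes of rice (Oryza sativa) encode transcription factors of the AP2/ERF superfamily that are also known as CBF factors. They were examined in leaves of 2 genotypes under drought. The probes were those assigned to 1 gene whose gene-table synonyms include the name DREB1, with or without the prefix Os, followed by a single letter. Of 9 such genes in the gene table, 3 had a probe, DREB1A (LOC4347620), DREB1B (LOC4347618) and DREB1G (LOC4330306), with 1 probe each among 22575 spots. They are 3 of 15702 genes with a tested probe. DREB1C, DREB1E, DREB1F, DREB1H, DREB1I and DREB1J had no probe in the annotation used and were not analysed here.

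DREB1 factors bind the dehydration-responsive or C-repeat element of promoters through their AP2 domain. In rice and Arabidopsis their genes are best known for a fast response to low temperature, and plants that overproduce a DREB1 factor gain tolerance to cold, drought and salt. The related DREB2 factors bind the same element and are known mainly for responses to water deficit, salt and heat. Targets of rice DREB1A in overexpressing plants include genes of dehydrins and other proteins that protect cells during water loss.

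The groups were Apo, which the submitters call tolerant of drought, and IR64, which they call susceptible, with 3 two-colour Agilent arrays each. Every array carried leaf RNA of well-watered control plants (Cy5) and of drought-stressed plants (Cy3) of 1 genotype, all grown in a greenhouse, and no dyes were exchanged. Water was withheld from day 33 after sowing. Control leaves were taken on day 37; for stressed leaves the sample labels give 5 days of stress and the series text 6. The labels do not say whether replicates are separate plants, so the spread behind each p-value may be partly or wholly technical and covers these samples alone.

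Values are deposited within-array log ratios of the 2 RNAs, taken as log10, the base the named software writes. They are given as mean ± SD over the 3 arrays of a genotype. The direction of the ratio was not settled. By the dyes in the labels and the software's usual red over green, a positive ratio would mean more RNA in the control. On the same arrays all 5 dehydrin probes (RAB16B, RAB16C, RAB16D, rab25 and Dhn1), whose transcripts are known to rise on water loss, were positive on every array, between 0.653 and 1.84. Ratios are therefore called positive or negative, and not higher or lower in drought. Fewer cells of a type and less RNA per cell cannot be told apart in leaf RNA.

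The arrays differed in ways that touch these genes. The IR64 replicate 1 array was closer to Apo than to its own genotype: over the probes its correlation was 0.832 to 0.894 with Apo arrays but 0.755 to 0.767 with IR64 replicates 2 and 3, a pair that correlated at 0.938. The standard deviation of the ratios over 17727 tested probes was 0.318 to 0.358 on the Apo arrays and 0.268 to 0.318 on the IR64 arrays. Without channel intensities, brightness over background cannot be given for these probes, and precision is limited by having 3 arrays a genotype. None of the 18 DREB1 values was exactly 0 (0 of 18).

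In IR64 all 3 DREB1 probes were negative past the threshold, by limma at a Benjamini-Hochberg adjusted p under 0.05 over all tested probes, and in Apo none was. Of all tested probes, 20.2% were negative and 22.7% positive past the threshold in IR64 (43.0% in either direction), and 25.6% were negative and 24.5% positive in Apo (50.1%). Negative in IR64 without a call in Apo, the pattern of the 3 probes, held for 4.94% of all probes. The genotype difference passed the threshold for DREB1B and DREB1A, both positive as Apo minus IR64, and not for DREB1G. Over all probes 2.02% passed for the difference, 0.773% positive and 1.25% negative, and a block for replicate number took the count from 358 to 951 probes. In limma 4848 of the 17727 tested probes had an unadjusted p under 0.05 for the difference. Such counts in the gene lists below are to be read beside that share. On all 3 probes every Apo array stood above every IR64 array, an ordering found for 15.3% of all probes, while 34.5% had no overlap in either order. Averaged over both genotypes the 3 probes were negative past the threshold, at -0.295 for DREB1A, -0.422 for DREB1B and -0.479 for DREB1G, beside 28.8% of probes negative, 29.3% positive and 58.1% past it in all; these averages join unequal genotypes.

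DREB1B stood close to 0 on all 3 Apo arrays, at -0.0167, -0.0139 and 0.0405 in replicates 1 to 3. On the IR64 arrays it stood at -0.806, -0.848 and -0.888. The genotypes were separated by a gap of 0.790 between the nearest arrays, against ranges of 0.0572 within Apo and 0.0822 within IR64. The means were 0.00331 ± 0.0322 in Apo (limma adjusted p = 0.939) and -0.848 ± 0.0411 in IR64 (adjusted p = 1.52e-05), a 7.04-fold inequality of the RNAs in IR64 if the base is 10. The 95% interval of the Apo mean ran from -0.0709 to 0.0775. The difference, Apo minus IR64, was 0.851 (SE 0.0437, 95% interval 0.746 to 0.956, adjusted p = 0.00600). Its unadjusted p-value ranked 1 among the 17727 probes tested for the genotype difference, and its size ranked 11 among positive differences.

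DREB1A, whose gene lies beside that of DREB1B on chromosome 9 with only DREB1H between them, showed the same order of the genotypes with a wider spread in Apo. The Apo arrays gave 0.231, -0.0843 and -0.130 in replicates 1 to 3, and the IR64 arrays -0.543, -0.610 and -0.635. Replicate 1 was the high array of Apo, the 3 IR64 arrays lay within 0.0918 of each other, and the genotypes did not overlap. The Apo mean was 0.00576 ± 0.196 (adjusted p = 0.954), and its SD exceeded that of 92.9% of all probes. The IR64 mean was -0.596 ± 0.0475 (adjusted p = 0.000917), a 3.94-fold inequality if the base is 10. The difference was 0.602 (SE 0.0986, 95% interval 0.365 to 0.839, adjusted p = 0.0423).

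The DREB1A difference lay near the threshold. It was not past it without any single array other than IR64 replicate 1, with adjusted p between 0.0729 and 0.203 in those 5 fits and 0.0166 without IR64 replicate 1. The difference itself ranged from 0.489, without Apo replicate 1, to 0.669 over the leave-outs. For DREB1B it ranged from 0.831 to 0.872 and was past the threshold in all leave-outs except that of IR64 replicate 3 (adjusted p = 0.0621). Leaving out any 1 array other than IR64 replicate 1 left 0 to 12 of the 17727 probes past the threshold in limma, with 2589 at an unadjusted p under 0.05 where the number was 0; leaving out IR64 replicate 1 gave 5959. The exact two-sided permutation test of Apo against IR64 arrays gave p = 0.1 for each DREB1 probe, the smallest that 3 against 3 arrays allow.

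DREB1G, on chromosome 2, was negative on all 6 arrays. The Apo arrays gave -0.446, -0.124 and -0.114 in replicates 1 to 3, and the IR64 arrays -0.463, -0.885 and -0.840. Both replicate 1 arrays gave nearly the same value, 0.0167 apart, while the pairs of replicates 2 and 3 were 0.761 and 0.726 apart. The mean was -0.228 ± 0.189 in Apo (adjusted p = 0.0999) and -0.729 ± 0.232 in IR64 (adjusted p = 0.00167), a 5.36-fold inequality in IR64 if the base is 10. The difference of 0.501 (SE 0.140, 95% interval 0.164 to 0.838) did not pass the threshold over all probes (adjusted p = 0.101). Without IR64 replicate 1 it was 0.634 (adjusted p = 0.0150), and the Apo mean then also passed (adjusted p = 0.0437).

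**Figure D1:**
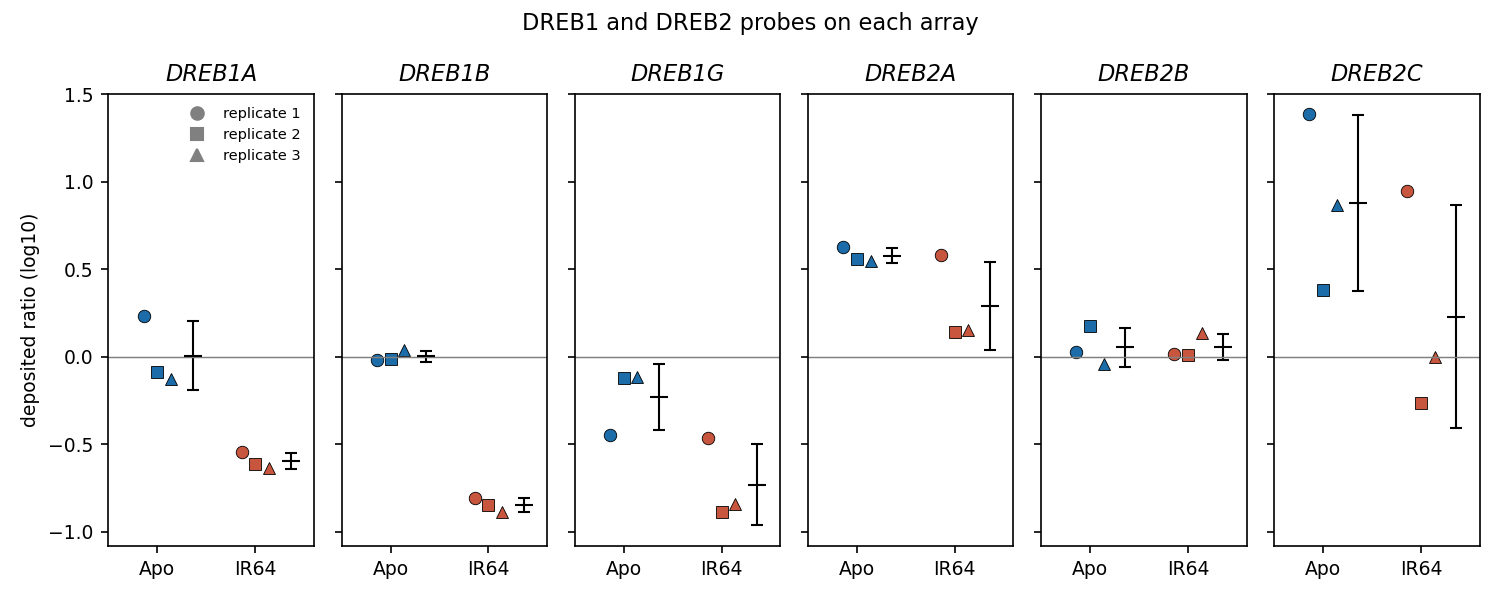
Deposited log10 ratio of the 3 DREB1 and 3 DREB2 probes on each of 3 Apo arrays (blue) and 3 IR64 arrays (red), with the mean ± SD beside the points. DREB1B was near 0 on each Apo array, while DREB1A ranged from -0.130 to 0.231 there. On the IR64 arrays both lay between -0.543 and -0.888. DREB2A and DREB2C had their highest IR64 value on replicate 1.

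The order of the 3 probes differed between arrays. In IR64 the ratio of DREB1A exceeded that of DREB1B by 0.263, 0.239 and 0.253 on replicates 1 to 3, a difference of 0.252 ± 0.0123. In Apo the same difference was 0.248, -0.0704 and -0.170, so its sign varied between arrays. DREB1G changed its place in the order: it was the least negative of the 3 on IR64 replicate 1 and the most negative on every Apo array except replicate 3, where it stood 0.0156 above DREB1A. On the IR64 replicate 2 array it was again the most negative, 0.0363 below DREB1B.

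The place of the IR64 replicate 1 array was followed for each member. Among 2843 tested probes whose Apo mean and mean of the other 2 IR64 arrays were more than 0.3 apart, IR64 replicate 1 lay nearer to Apo on 2023, or 71.2%. DREB1B and DREB1A were not among these. IR64 replicate 1 lay 0.0714 and 0.126 of the way from the other IR64 arrays to the Apo mean on these probes. DREB1G stood at 0.630 of that way. The 0.3 minimum was chosen after the values were seen.

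Among all probes, 0.677% had a more negative IR64 mean than DREB1B, 1.29% a more negative one than DREB1G and 2.39% a more negative one than DREB1A. In Apo 51.7% of probes were more negative than DREB1B and 52.2% more negative than DREB1A, so both were in the middle of the distribution. Only 21 probes (0.118% of those tested) were negative past the threshold in IR64, not past it in Apo and past it for the difference. DREB1A and DREB1B were 2 of the 5 among these that had a gene name. The others were MADS14, a MADS box factor of floral induction, chia4a, a chitinase, and INO1, which makes the inositol phosphate precursor; INO1 was named after its values were seen. INO1 stood at 0.0738 in Apo and -0.202 in IR64. MADS14 was listed at exactly 0 on Apo replicates 1 and 3 and at 0.0395 on replicate 2.

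**Figure D2:**
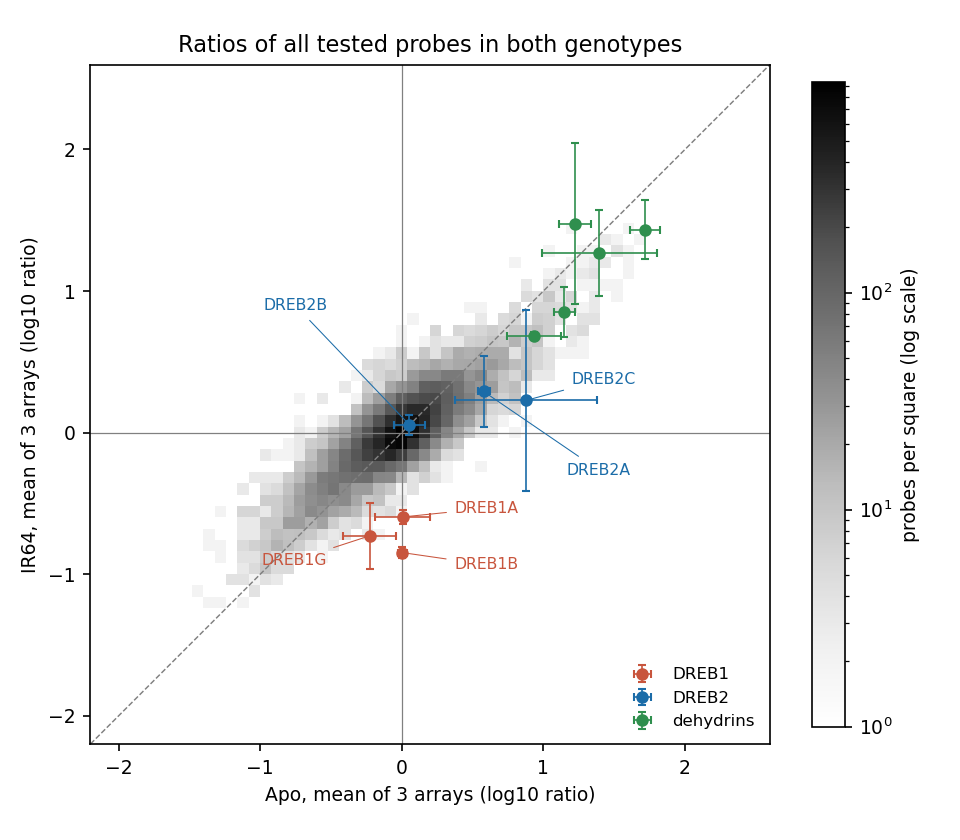
Mean log10 ratio of 17727 tested probes in IR64 against Apo, as a density on a log colour scale, with DREB1, DREB2 and dehydrin probes as points with SD bars over 3 arrays. The dashed line marks equal ratios. DREB1A and DREB1B lie at about 0 on the Apo axis, at -0.596 and -0.848 on the IR64 axis, below the main cloud.

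The named probes nearest to each member were sought by the root mean square difference of the ratio over the 6 arrays, among 2395 other probes with a gene name. For DREB1B the nearest was chia4a at 0.162, followed by MADS14 at 0.202, DREB1A at 0.218, DREB1G at 0.239 and Smt1-1 at 0.246. For DREB1A they were Smt1-1 at 0.148, MADS14 at 0.152, chia4a at 0.173, CYP99A2, a cytochrome P450, at 0.187 and MADS58 at 0.199, with DREB1B in place 9. For DREB1G they were chia4a at 0.172, MADS58 at 0.203, Smt1-1 at 0.207, the NAC factor NAC067 at 0.212 and PPDKB, a pyruvate phosphate dikinase, at 0.220, with DREB1B in place 8 and DREB1A in place 53. Each of the 3 lists thus held chia4a and Smt1-1, and the members were not each other's nearest probes. These distances describe 6 arrays and carry no test, and those of MADS14 rest in part on Apo values listed as exactly 0.

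The DREB2 probes, the nearest relatives on the array by name, had genotype means above 0, although DREB2C was negative on 1 IR64 array. DREB2A, a factor of the water deficit response, was positive on all 6 arrays. Its Apo arrays gave 0.626, 0.559 and 0.549 and its IR64 arrays 0.582, 0.139 and 0.151, so IR64 replicate 1 stood with Apo and the genotypes overlapped. The means were 0.578 ± 0.0417 in Apo (adjusted p = 0.00186) and 0.290 ± 0.252 in IR64 (adjusted p = 0.0340). The IR64 mean did not pass when IR64 was fitted alone (adjusted p = 0.122), over all spots (0.0570), without any 1 of the Apo arrays (0.0558 to 0.0645) or without IR64 replicate 3 (0.0510). The genotype difference of 0.287 had an adjusted p = 0.187, and without IR64 replicate 1 it was 0.433 with an adjusted p = 0.00394.

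DREB2C gave 1.39, 0.381 and 0.864 on the Apo arrays and 0.947, -0.265 and 0 on the IR64 arrays, the last being listed as exactly 0. Its replicate 1 array was the highest and its replicate 2 array the lowest in both genotypes. The means were 0.877 ± 0.502 in Apo (adjusted p = 0.0301) and 0.227 ± 0.637 in IR64 (adjusted p = 0.516). A block for replicate number brought the IR64 mean (adjusted p = 0.0472) and the difference of 0.650 (0.0453, against 0.290 without it) past the threshold. The Apo mean did not pass without Apo replicate 1 (0.171) or 3 (0.0977) or over all spots (0.0565). DREB2B was near 0, with 0.0535 ± 0.110 in Apo and 0.0552 ± 0.0720 in IR64, past the threshold in neither. Without the block or a left-out array, no DREB2 probe passed for the difference in limma, and 0 of 3 had an unadjusted p under 0.05.

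Other AP2/ERF factors with a name were few. Of 5 probes, 0 were positive and 1 negative in Apo and 1 positive and 1 negative in IR64, with medians of -0.0194 and 0.00861 beside -0.00318 and 0 over all probes. The floral regulator mfs1 was negative in Apo at -0.832 ± 0.134 and in IR64 at -1.12 ± 0.0613. SMOS1, which acts on organ size, was positive in IR64 at 0.276 ± 0.0143 and stood at 0.0630 ± 0.0542 in Apo. EREBP-1 stood at -0.0194 and 0.0120, and ERF78 at 0.0764 and 0.00861, in Apo and IR64. None of the 5 passed for the genotype difference and 2 had an unadjusted p under 0.05. AP2-5 stood at -0.0472 ± 0.133 in Apo and -0.0985 ± 0.151 in IR64. For the difference there was 1 positive call with quantile normalization, 1 positive with the replicate block and 1 negative without IR64 replicate 1, and the block gave 1 positive and 2 negative calls in IR64.

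The next list held proteins known to act on DREB1 or CBF genes, or on factors that do, in rice or Arabidopsis. With MYBS1, included as a relative of MYBS3, it gave 14 probes of 13 genes. In Apo 5 were positive and 3 negative past the threshold, and in IR64 3 were positive and 1 negative, with medians of 0.0467 and 0.0314. The negative call in IR64 was that of MYBS1. MYB4, a rice factor of cold tolerance, stood at 1.09 ± 0.0785 in Apo and 0.413 ± 0.314 in IR64, positive past the threshold in both. The kinase MPK3, which acts on the DREB1 inducer ICE1, stood at 0.635 ± 0.0307 in Apo (adjusted p = 0.00287) and 0.219 ± 0.316 in IR64 (adjusted p = 0.138). Both IR64 means join unlike arrays. On IR64 replicates 1 to 3 MPK3 stood at 0.583, 0.0190 and 0.0548, and MYB4 at 0.776, 0.244 and 0.221. MYBS3, a repressor of DREB1 genes in rice under cold, was negative in Apo on 1 probe at -0.170 ± 0.0316. Its other probe, at -0.234 ± 0.179, did not pass there, and neither passed in IR64.

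Among the light receptors of that list, PhyB was positive in Apo at 0.146 ± 0.0344 and in IR64 at 0.209 ± 0.0835. PHYA was negative in Apo at -0.142 ± 0.0151 and stood at -0.0291 ± 0.0216 in IR64. The ethylene signalling factor EIL1 was positive in both, at 0.132 ± 0.0222 and 0.141 ± 0.0674, while phyC, the other phytochrome measured, passed in neither, at -0.0840 ± 0.0383 and 0.0824 ± 0.0723. MYB3R-2, a MYB factor of cold tolerance in rice, was positive in Apo at 0.131 ± 0.0513 and stood at -0.0394 ± 0.0499 in IR64. MYBS1, a relative of MYBS3, was negative in both, at -0.321 ± 0.0229 and -0.251 ± 0.0876. No probe of the list passed for the difference, 5 had an unadjusted p under 0.05, and without IR64 replicate 1 there were 4 positive and 2 negative calls. With the replicate block 5 were positive and 4 negative in Apo, and 3 positive and 2 negative in IR64.

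Clock components, which gate CBF expression over the day in Arabidopsis, gave 8 probes with 6 negative in Apo and 7 in IR64 and none positive in either, with medians of -0.284 and -0.357. The response regulator PRR37 stood at -0.600 ± 0.0359 in Apo and -0.619 ± 0.0521 in IR64 on 1 of its probes. PRR95, of the same family, stood at -0.305 ± 0.0510 and -0.341 ± 0.0559, and PRR73 at -0.345 ± 0.0277 and -0.373 ± 0.128 on 1 of its probes. GI stood at -0.186 ± 0.0157 and -0.116 ± 0.0806, past the threshold in both. CCA1, the morning factor, had the widest gap of these probes between the genotypes. Its mean was -0.0308 ± 0.228 in Apo (adjusted p = 0.792) and -0.456 ± 0.128 in IR64 (adjusted p = 0.00687), with a difference of 0.426 that did not pass (adjusted p = 0.106). None of the 8 passed for the difference and 1 had an unadjusted p under 0.05; without IR64 replicate 1 there were 1 positive and 2 negative calls. The replicate block left 6 of the IR64 calls. The hour of sampling is not given in the labels, and the part of the clock in the DREB1 ratios was not tested.

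Dehydrins, a LEA protein, cold-regulated proteins and enzymes of proline and trehalose synthesis, among them targets of DREB1 factors in overexpressing rice, gave 16 probes. In Apo 13 were positive and 2 negative, and in IR64 10 were positive and 3 negative, with medians of 0.895 and 0.601. The dehydrin Dhn1, also called LIP9 and a known target of DREB1A, stood at 0.935 ± 0.191 in Apo and 0.685 ± 0.0280 in IR64. The salt-induced lectin salT, another, stood at 0.856 ± 0.0719 and 0.846 ± 0.0474. In each genotype PM19L1 had the smallest p-value of the list, with a mean of 1.96 ± 0.130 in Apo and of 1.77 ± 0.165 in IR64. The LEA protein EM stood at 1.31 ± 0.154 in Apo (adjusted p = 0.000409) and 0.404 ± 0.385 in IR64 (adjusted p = 0.0512). TPP1 and TPP10, of trehalose synthesis, were negative in both genotypes, at -0.757 ± 0.122 and -0.500 ± 0.171 in Apo and -0.636 ± 0.0831 and -0.225 ± 0.0841 in IR64.

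In IR64, then, the DREB1 probes were negative on the same arrays on which the 5 dehydrin probes were positive. Those dehydrin probes were positive in Apo too, where of the DREB1 probes only DREB1G was negative on every array. Not all of the 16 probes stood with the dehydrins, as 3 were negative past the threshold in IR64. None of the 16 probes passed for the difference, 7 had an unadjusted p under 0.05, and without IR64 replicate 1 there were 6 positive calls and 1 negative. The membrane protein LTI6B had a difference of 0.701 (adjusted p = 0.0730), EM one of 0.907 (0.0645) and TPP2 one of 0.180 (0.105), from 0.0688 ± 0.0241 in Apo and -0.111 ± 0.0779 in IR64. With the replicate block 11 probes were positive and 2 negative in IR64. The gibberellin receptor gid1, the single probe found for that hormone's list, was positive at 0.292 ± 0.0535 in Apo and 0.331 ± 0.0341 in IR64.

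**Figure D3:**
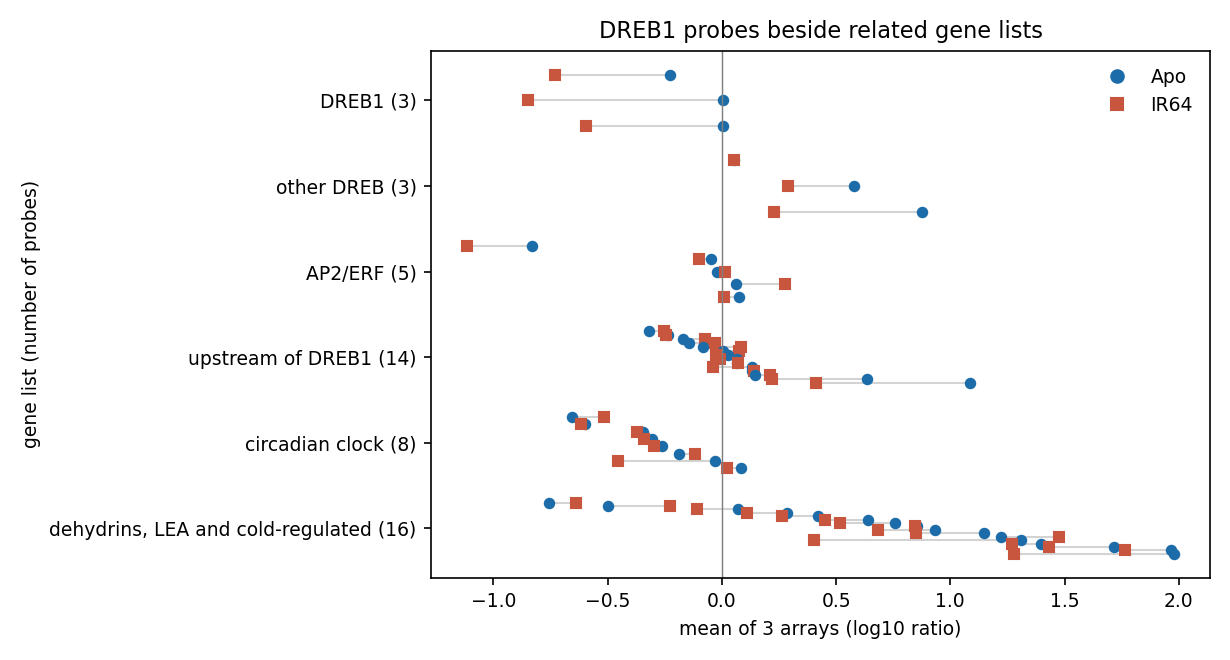
Mean log10 ratio over 3 arrays in Apo (blue circles) and IR64 (red squares) for each probe of the DREB1 genes and 5 related lists, with a grey line joining the 2 values of a probe. The 3 DREB1 probes lie to the left in IR64, while clock probes lie left of 0 or near it in both genotypes and 13 of 16 dehydrin and cold-regulated probes are positive past the threshold in Apo.

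The gene order around the members was taken from the gene table, 5 entries to each side. Of 21 such entries 8 had a tested probe. On chromosome 9 the entry before DREB1B, GEN1, which is named for a DNA repair nuclease, stood at -0.228 ± 0.0481 in Apo and 0.0244 ± 0.157 in IR64, the opposite order of the genotypes to DREB1B. LOC4347621, the nearest measured entry after DREB1A, stood at 0.0123 ± 0.0451 and -0.0687 ± 0.0511. On chromosome 2 the entry after DREB1G, LOC4330307, was negative in Apo at -0.783 ± 0.0518 and in IR64 at -0.580 ± 0.194. LOC4347614 was positive in Apo at 0.335 ± 0.169 and stood at 0.157 ± 0.0815 in IR64, and LOC4347626 was negative in both, at -0.495 ± 0.117 and -0.241 ± 0.0520. OsC3H17 was positive in both, at 0.109 ± 0.00421 and 0.132 ± 0.0324, while LOC4347615 and LOC4330309 passed in neither. Of the 8 neighbours, 5 passed in Apo and 3 in IR64, beside 50.1% and 43.0% of all probes. For the difference 0 of 8 passed, beside 2.02% of all probes. In limma 2 of the 8 had an unadjusted p under 0.05 for it, beside 4848 of all 17727 tested probes. With 8 probes these counts do not set the neighbours apart from all probes.

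**Figure D4:**
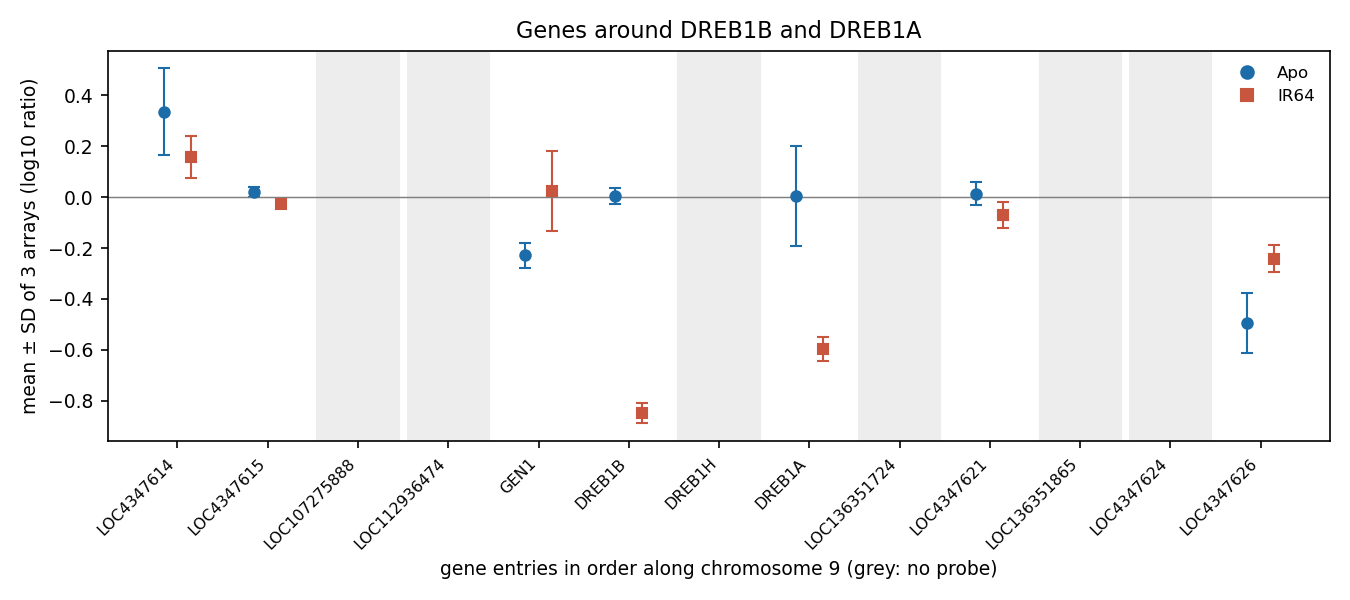
Mean ± SD of the log10 ratio over 3 arrays in Apo (blue) and IR64 (red) for gene entries in their order along chromosome 9 around DREB1B and DREB1A; grey bands are entries with no probe. DREB1B (-0.848) and DREB1A (-0.596) have the lowest IR64 means of the entries shown, and their neighbours with a probe lie between -0.241 and 0.157 in IR64.

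Marker genes fixed for the tissue were set beside these results. Of 5 probes of leaf mesophyll markers, 4 were negative and none positive in each genotype, with medians of -0.626 in Apo and -0.366 in IR64 and no summed level, since ratios hold none. RCABP69 stood at -1.08 ± 0.0470 in Apo and -0.795 ± 0.307 in IR64, OEE3 on 1 of its probes at -0.626 ± 0.0864 and -0.366 ± 0.170, and CAB1R at -0.237 ± 0.282 and -0.0722 ± 0.159. CAB2R, a light-harvesting protein, stood at -1.12 ± 0.266 in Apo and -1.22 ± 0.199 in IR64. Of 2 root probes 1 was negative in each genotype, IRT1 at -0.864 ± 0.0400 and -0.627 ± 0.119. Lsi1, the other root probe, stood at 0.0848 ± 0.250 and -0.00717 ± 0.184. Of 3 vascular probes CESA4, a cellulose synthase of secondary walls, stood at 0.0950 ± 0.290 in Apo and 0.782 ± 0.138 in IR64, with a difference that did not pass (adjusted p = 0.0682). CESA7 stood at 0.181 ± 0.0819 and 0.140 ± 0.147, and BC1 at -0.529 ± 0.0905 and -0.112 ± 0.362. Of 2 anther probes C4 (OSC4) was positive in each genotype, at 0.426 ± 0.0913 and 0.505 ± 0.173, and C6 (OSC6) passed in neither. Of 3 seed probes GLB was negative in Apo at -0.232 ± 0.0898, GLUA-1 and GLUA2 did not pass there, and none passed in IR64. No marker probe passed for the genotype difference. In limma 5 of 15 had an unadjusted p under 0.05, beside 4848 of all 17727 tested probes. Without IR64 replicate 1 there were negative calls for 2 leaf, 1 root, 2 vascular and 1 seed probe. With the replicate block 1 vascular and 1 seed probe passed for the difference, both negative, 2 vascular probes were positive in IR64, and 1 seed probe was positive in Apo. Negative leaf mesophyll calls fell from 4 to 3 in each genotype, both with the block and without IR64 replicate 1. The part of cell type in the DREB1 ratios was not tested.

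**Figure D5:**
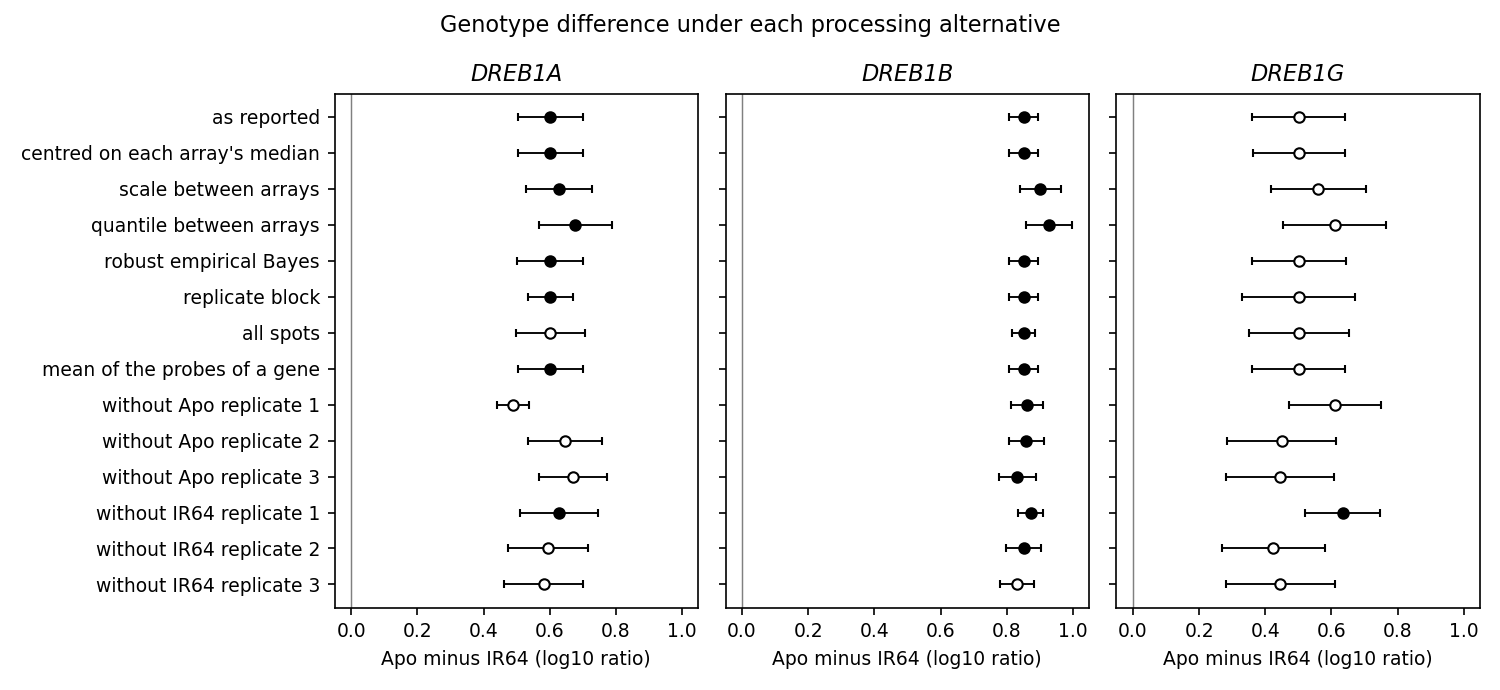
Apo minus IR64 difference of the log10 ratio (point) with its standard error (bar) for each DREB1 probe, as reported and under 13 alternatives; filled points have a limma adjusted p under 0.05. The difference stayed positive throughout, between 0.831 and 0.927 for DREB1B, 0.489 and 0.677 for DREB1A, and 0.424 and 0.634 for DREB1G.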

How the data were processed

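Two-colour Agilent rice arrays of 3 Apo and 3 IR64 leaf samples were read by the authors with software that the submitters' processing notes name as Agilent Feature Extraction 8.1. The deposited values are log10 ratios by that software's usual base; for base, sign, background correction, dye normalization and centring: not given in the sources used here. The deposited median was 0.00201 on Apo replicate 1 and 0 on the other arrays.

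All 17839 single-gene probes matched the gene table (assembly ASM3414082v1, used for names and gene order). Of 17860 annotated probes (21 assigned to several genes), 133 at 0 on all arrays were left out, leaving 17727. limma 3.58.1 (R 4.3.3) estimated 1 mean for each genotype from the 6 arrays, with eBayes and Benjamini-Hochberg adjustment over all probes. The script was tested on simulated data with independent noise, which checks the code and not the error rates in these arrays. Tables used Python 3.11.15 and pandas 2.3.3, and figures matplotlib 3.10.9.

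Members and lists were chosen with earlier results of these data known. Lists were matched by gene name, and 18 probes that shared only a name, stood in another list or had no known role were left out. Named genes were all members, their 5 nearest named probes, neighbours, the 3 genes of smallest p-value in each list and contrast, genes that a list count rests on, and dehydrins for the sign. The labels number the replicates alike in both genotypes without saying what a number shares. Same-numbered Apo and IR64 arrays deviated together (correlations 0.322, 0.261 and 0.340 for replicates 1 to 3), so the arrays may be paired by number. The main fit did not use such a pairing, and a block for replicate number was run as an alternative. The alternatives were centring, scale (median absolute values), quantile, a robust prior, each genotype alone, the replicate block, all spots, gene means and leaving out each array. RAB16A matched no name. No sequences were used.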

Additional observations from a re-analysis of the deposited data

Results flagged for a closer look

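DREB1B differed between the genotypes by a test of the difference itself, at 0.851 (Apo minus IR64) with a limma adjusted p = 0.00600, with all 3 Apo arrays above all 3 IR64 arrays. DREB1A did so too, at 0.602 with an adjusted p = 0.0423 and the same separation of the arrays. That ordering of the arrays was found for 15.3% of all probes. Of the 6 leave-outs, the limma call held in 5 for DREB1B and in only 1 for DREB1A, which also lost it over all spots. With the replicate block the limma adjusted p was 0.0320 for DREB1B and 0.0401 for DREB1A. Dixon's test was not run, since groups hold 3 arrays.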

How the results depend on the processing

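The 12 values of the DREB1 probes (3 probes in 4 contrasts) were recomputed under alternatives, and 150 of 162 recomputed values kept their direction and their side of the threshold. Many of these could not change direction. The robust prior, the replicate block, all spots, each genotype alone and gene means left the DREB1 estimates as they were. Leaving out an array left the mean of the other genotype as it was. In such fits only the side of the threshold could move. All 3 IR64 calls were kept under every alternative run. The difference of DREB1A lost its call over all spots (0.602, adjusted p = 0.0665) and in 5 leave-outs (range over all 6, 0.489 to 0.669), and that of DREB1B in 1 (0.831 to 0.872). That of DREB1G gained one without IR64 replicate 1 (0.424 to 0.634 over the leave-outs), as did its Apo mean (-0.285 to -0.119). Means near 0 in Apo changed sign, DREB1A with scaled arrays (-0.00234) and over the leave-outs (-0.107 to 0.0734) and DREB1B over the leave-outs (-0.0153 to 0.0133), none of them past the threshold. With the replicate number as a block the DREB1B and DREB1A differences kept their calls (adjusted p = 0.0320 and 0.0401) and the block changed no DREB1 call. The count of called differences moved from 358 to 951 with the block and to between 0 and 5959 over the leave-outs, with 2589 probes at an unadjusted p under 0.05 where it was 0. The IR64 count of 7619 ranged from 5076 to 8457 over the leave-outs. Each leave-out fit has fewer degrees of freedom, and the count of called differences was 5959 without IR64 replicate 1. The cause of these changes was not tested. Scaled arrays gave 247 called differences and quantile normalization 250. Signal over background is unknown.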
